A study of Mus musculus with 8 samples.

Results

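The inflammatory CC chemokines were examined here as a set of 10 ligand genes, Ccl2, Ccl3, Ccl4, Ccl5, Ccl7, Ccl8, Ccl12, Ccl17, Ccl20 and Ccl22, chosen by gene symbol. All 10 were found among the 36670 genes of the authors' normalized table and the 55536 of the count table, and all 10 had enough counts to be tested. HCA-1 is a murine hepatocellular carcinoma (HCC) cell line, implanted under the liver capsule of male C3H mice whose age is given as 6 to 8 weeks in the sample labels and as 4 to 6 weeks in the study's methods. On day 17 the mice received a single intravenous dose of PFSUV-IMQ (imiquimod, an agonist of the RNA sensor TLR7, loaded in phospholipid-free small unilamellar vesicles) at 4 mg/kg, or saline. RNA of the tumors was sequenced 3 h later, from 4 mice per group, labeled IMQNP and Control. Empty vesicles and free imiquimod are in neither group, so carrier and drug cannot be told apart.

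CC chemokines are small secreted proteins that guide leukocytes along a gradient by binding G protein-coupled receptors on the cell surface. Ccl2, Ccl7, Ccl8 and Ccl12 are monocyte attractants of the MCP group, and Ccr2 is the best known receptor of the group. Ccl3, Ccl4 and Ccl5 draw T cells, NK cells and macrophages. Ccl17 and Ccl22 are dendritic cell and macrophage products that attract Ccr4-positive T cells, including regulatory T cells, and Ccl20 is the ligand of Ccr6. In the liver, Kupffer cells, recruited monocytes, stellate cells and hepatocytes can all make members of this family.

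None of the 10 chemokines passed the test in the comparison of PFSUV-IMQ with saline, in either direction. Calls needed a Benjamini-Hochberg adjusted p below 0.05 over the 15998 genes tested, from the quasi-likelihood F test of edgeR, together with a more than 2-fold difference. Of all tested genes, 2.26% were called higher and 0.200% lower. At an unadjusted p under 0.05, 4 members were higher (Ccl2, Ccl4, Ccl7 and Ccl12), against 8.34% of tested genes, and 1 was lower (Ccl22), against 4.65%. Other tests placed some members past the same thresholds: 4 higher by DESeq2's Wald test (Ccl2, Ccl4, Ccl7 and Ccl12), against 3.12% of its tested genes, and the first 3 of these by edgeR's exact test, against 3.36%, and by limma's voom with a weight for each tumor, against 4.17%. Across the set, 8 members had a log2 fold change above 0 and 2 below it, with a median of 0.87, compared with -0.03 over all tested genes.

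For most of these genes, replicate 2 of PFSUV-IMQ lay far above its group. It had the highest value of its group for 9 of the 10 chemokines, and for 34.8% of all tested genes. Summed over the 10 genes, expression per kilobase of exon (RPKM) was 1811 in that tumor, compared with 342, 426 and 404 in PFSUV-IMQ replicates 1, 3 and 4 and 262, 444, 424 and 271 in saline replicates 1, 3, 4 and 5. On this scale, on which Ccl8 weighs most, the other 3 PFSUV-IMQ tumors lay within the range of the saline tumors. In CPM, not divided by length, the sums were 180 to 303 after saline and 253 to 1261 after PFSUV-IMQ. The PFSUV-IMQ median of 317 lay above every saline sum, so on this scale replicate 2 was not the only treated tumor above them. Without this tumor 2 members were called higher, Ccl2 and Ccl7, against 1.78% of tested genes, and none lower, against 0.177%. At an unadjusted p under 0.05, 4 were then higher, against 7.01%, and 2 lower (Ccl8 and Ccl22), against 6.70%, with 6 log2 fold changes above 0 and 4 below. Ccl2, Ccl4 and Ccl7, 3 members, still had no overlap between groups, against 7.64%. The median log2 fold change of the set without it was 0.16, compared with -0.04 over all genes.

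**Figure D1:**
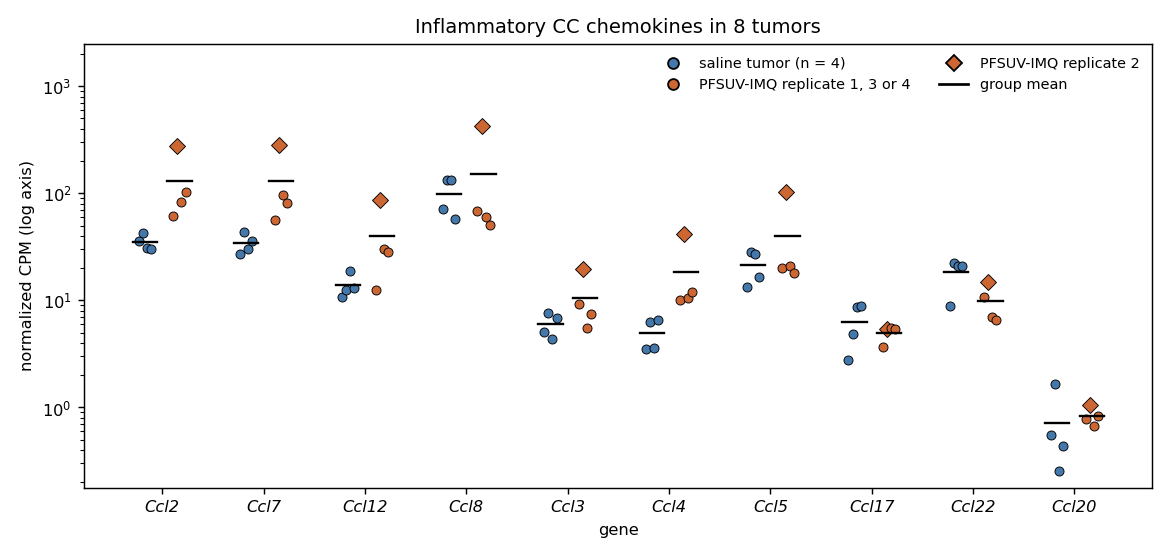
Normalized CPM (log axis) of the 10 chemokine genes in each tumor, with saline tumors in blue, PFSUV-IMQ tumors in orange, replicate 2 as a diamond and horizontal lines for group means. For Ccl2, Ccl7 and Ccl4 all 4 PFSUV-IMQ tumors lie above the saline tumors, and for Ccl8 and Ccl5 the diamond alone does.

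Of the 10 members, 3 (Ccl2, Ccl7 and Ccl4) had all PFSUV-IMQ tumors above all saline tumors, against 6.00% of tested genes, and none had all of them below, against 3.28%. Among the monocyte attractants, Ccl2 (ENSMUSG00000035385, chromosome 11 of GRCm38, 82035571 to 82037453), the prototype MCP that recruits Ccr2-positive monocytes, was measured at 36.2, 42.7, 30.7 and 30.4 CPM (normalized counts per 1e6 counts) in saline replicates 1, 3, 4 and 5. It was at 61.4, 276, 82.5 and 104 CPM in PFSUV-IMQ replicates 1, 2, 3 and 4. The groups did not overlap, although the lowest treated tumor was well below replicate 2. The means were 35.0 ± 5.80 and 131 ± 98.1 CPM (SD, n = 4 each), which is 1.90 on the log2 scale (95% interval 0.93 to 2.88, standard error 0.44, adjusted p = 0.0549). Without replicate 2 the fold change was smaller, at 1.22 on the log2 scale (standard error 0.21, adjusted p = 0.0214), and Ccl2 was called. The smaller standard error follows from leaving out the most distant treated tumor and is not a gain in precision. Ccl2 was also called without PFSUV-IMQ replicate 1, at 2.13 (adjusted p = 0.0288).

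Ccl7 (MCP-3; ENSMUSG00000035373, chromosome 11, 82045712 to 82047525), the neighbor of Ccl2 and likewise a monocyte attractant, followed the same order of tumors in part. Its CPM were 27.3, 43.6, 30.1 and 35.8 after saline and 55.8, 285, 96.7 and 80.7 after PFSUV-IMQ. Again all treated tumors exceeded all controls, replicate 1 being the lowest and replicate 2 the highest. The log2 fold change was 1.92 (standard error 0.47, 95% interval 0.86 to 2.98, adjusted p = 0.0741) over all tumors and 1.17 (standard error 0.23, adjusted p = 0.0385) without replicate 2, where it was called. Without replicate 1 it was 2.17 (adjusted p = 0.0380), also called.

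Ccl12 (MCP-5; ENSMUSG00000035352, chromosome 11, 82101845 to 82103400), a mouse attractant of monocytes, had 10.8, 12.5, 18.9 and 13.1 CPM after saline and 12.6, 87.1, 30.2 and 28.2 CPM after PFSUV-IMQ. Replicate 1 of the treated group lay inside the saline range, while the other 3 exceeded it. The log2 fold change was 1.51 (standard error 0.51, 95% interval 0.38 to 2.65, adjusted p = 0.210) and, without replicate 2, 0.76 (standard error 0.31, adjusted p = 0.328).

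Ccl8 (MCP-2; ENSMUSG00000009185, chromosome 11, 82115185 to 82116799), whose product in mice acts mainly on Ccr8, had the highest mean RPKM of the set in both groups, although Ccl7 exceeded it in PFSUV-IMQ replicates 3 and 4. It was measured at 71.7, 133, 132 and 57.2 CPM after saline and at 68.9, 428, 59.9 and 50.8 CPM after PFSUV-IMQ. Only replicate 2 was above the saline range, and the other 3 treated tumors were at its low end or below it. Over all tumors the log2 fold change was 0.62 (standard error 0.68, 95% interval -0.91 to 2.15, adjusted p = 0.794). Without replicate 2 the direction turned, to -0.73 (standard error 0.31, 95% interval -1.44 to -0.03, adjusted p = 0.341).

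The start regions of Ccl12 and Ccl8 are shown because these genes are neighbors on the same strand and had different values in the treated tumors other than replicate 2. Each sequence runs from 250 bases before to 50 bases after the gene's start, 5′ to 3′ (RefSeq, GRCm38.p6), and neither holds any of the motifs searched for on both strands, namely the NF-κB motif (GGGA, any 4 bases, then CC), the interferon response element motif (GAAA, any 2 bases, then GAAA) and the AP-1 motif (TGANTCA, N being any base).
Ccl12, chr11:82101595-82101894, plus strand: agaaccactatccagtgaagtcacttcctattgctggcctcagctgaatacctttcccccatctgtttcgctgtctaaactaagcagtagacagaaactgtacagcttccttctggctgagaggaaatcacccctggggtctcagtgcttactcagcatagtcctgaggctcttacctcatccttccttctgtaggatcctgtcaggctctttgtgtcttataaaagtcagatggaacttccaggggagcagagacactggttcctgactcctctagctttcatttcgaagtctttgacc
Ccl8, chr11:82114935-82115234, plus strand: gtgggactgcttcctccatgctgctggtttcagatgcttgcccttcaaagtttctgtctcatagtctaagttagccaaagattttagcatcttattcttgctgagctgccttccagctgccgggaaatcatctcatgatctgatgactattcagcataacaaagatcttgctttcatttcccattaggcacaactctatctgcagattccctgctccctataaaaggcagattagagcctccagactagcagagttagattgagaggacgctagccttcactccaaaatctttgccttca
Of 32851 promoters of this length, 20.7% hold the NF-κB motif, 3.44% the interferon motif and 7.81% the AP-1 motif. Sequences were matched for 6 members, and of these Ccl3 and Ccl17 also held none of the motifs in this window, while Ccl20 and Ccl22 each held a single NF-κB match, shown with those genes. Ccl2, Ccl4, Ccl5 and Ccl7 were not matched.

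Ccl4 (MIP-1β; ENSMUSG00000018930, chromosome 11, 83662584 to 83664683), which attracts lymphocytes and macrophages, had 3.50, 6.22, 3.61 and 6.52 CPM after saline and 9.99, 41.4, 10.5 and 11.9 CPM after PFSUV-IMQ. All treated tumors lay above all controls, and replicates 1, 3 and 4 were close to each other. The means were 4.96 ± 1.63 and 18.5 ± 15.3 CPM (SD, n = 4 each), a difference of 1.89 in log2 (95% interval 0.77 to 3.02, standard error 0.50, adjusted p = 0.101). Without replicate 2 it was 1.11 (standard error 0.28, adjusted p = 0.0971), and Ccl4 was not called with any single tumor left out.

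Ccl3 (MIP-1α; ENSMUSG00000000982, chromosome 11, 83647844 to 83649355), an attractant of macrophages and T cells that also binds Ccr1, had 5.12, 7.66, 4.34 and 6.84 CPM after saline and 9.32, 19.8, 5.58 and 7.50 CPM after PFSUV-IMQ. The groups overlapped, with replicates 3 and 4 inside the saline range. Its log2 fold change was 0.81 (standard error 0.39, 95% interval -0.07 to 1.70, adjusted p = 0.440), and 0.30 without replicate 2.

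Ccl5 (RANTES; ENSMUSG00000035042, chromosome 11, 83525778 to 83530518), a product of T cells, NK cells and macrophages that attracts T cells, had 13.3, 28.2, 26.8 and 16.6 CPM after saline. It had 19.9, 102, 20.9 and 18.0 CPM after PFSUV-IMQ, so that 3 treated tumors lay inside the saline range and replicate 2 far above it. The log2 fold change was 0.92 (standard error 0.58, 95% interval -0.38 to 2.22, adjusted p = 0.592) over all tumors and -0.13 (95% interval -0.75 to 0.48, adjusted p = 0.879) without replicate 2.

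Of the Ccr4 ligands on chromosome 8, Ccl22 (ENSMUSG00000031779, 94745590 to 94751699) had 8.89, 22.5, 21.2 and 21.2 CPM after saline and 10.7, 15.0, 7.03 and 6.56 CPM after PFSUV-IMQ. Saline replicate 1 was as low as the treated tumors, and the other 3 saline tumors were above all of them. The means were 18.4 ± 6.39 and 9.81 ± 3.90 CPM (SD, n = 4 each), a difference of -0.91 in log2 (95% interval -1.71 to -0.11, standard error 0.36, adjusted p = 0.304), and -1.20 without PFSUV-IMQ replicate 2 (adjusted p = 0.141). Ccl17 (TARC; ENSMUSG00000031780, 94810453 to 94812036) had 2.77, 4.88, 8.72 and 8.96 CPM after saline and 3.64, 5.38, 5.58 and 5.46 CPM after PFSUV-IMQ, all treated tumors within the saline range. Its log2 fold change was -0.34 (95% interval -1.17 to 0.50, adjusted p = 0.798), and -0.38 without replicate 2.

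Ccl20 (ENSMUSG00000026166, chromosome 1, 83116766 to 83119167), the Ccr6 ligand of mucosal and liver inflammation, was the least abundant member, with 12, 47, 6 and 8 counts in the saline tumors and 14, 15, 12 and 15 in the PFSUV-IMQ tumors. In CPM this was 0.258 to 1.65 and 0.669 to 1.05, while a count of 0 would allow up to 3 counts, or 0.105 to 0.210 CPM, by counting error alone. The log2 fold change was 0.16 (95% interval -1.06 to 1.38, adjusted p = 0.950), an interval that includes a change of 2-fold in either direction. It was 0.01 without PFSUV-IMQ replicate 2 and 0.98 without saline replicate 3, the tumor with 47 counts. The start regions of Ccl20 and Ccl22 are shown because they hold a match to the NF-κB motif (capitals), in genes whose treated tumors were not above the saline range. The Ccl20 match begins 81 bases before the start and the Ccl22 match, on the other strand, 131 bases before it. A match is a description of these letters and does not show a used site.
Ccl20, chr1:83116516-83116815, plus strand: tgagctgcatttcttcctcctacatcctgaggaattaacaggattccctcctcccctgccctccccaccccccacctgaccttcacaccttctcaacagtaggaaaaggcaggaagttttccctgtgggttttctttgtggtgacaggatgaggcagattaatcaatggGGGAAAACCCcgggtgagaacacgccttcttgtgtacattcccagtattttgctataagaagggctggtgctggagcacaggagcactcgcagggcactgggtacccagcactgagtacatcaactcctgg
Ccl22, chr8:94745434-94745733, plus strand: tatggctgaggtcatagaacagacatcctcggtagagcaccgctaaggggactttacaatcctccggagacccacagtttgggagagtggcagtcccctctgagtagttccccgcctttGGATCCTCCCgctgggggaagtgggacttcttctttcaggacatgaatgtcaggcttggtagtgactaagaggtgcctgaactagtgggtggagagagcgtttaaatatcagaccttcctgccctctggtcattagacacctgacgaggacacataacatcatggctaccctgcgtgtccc

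**Figure D2:**
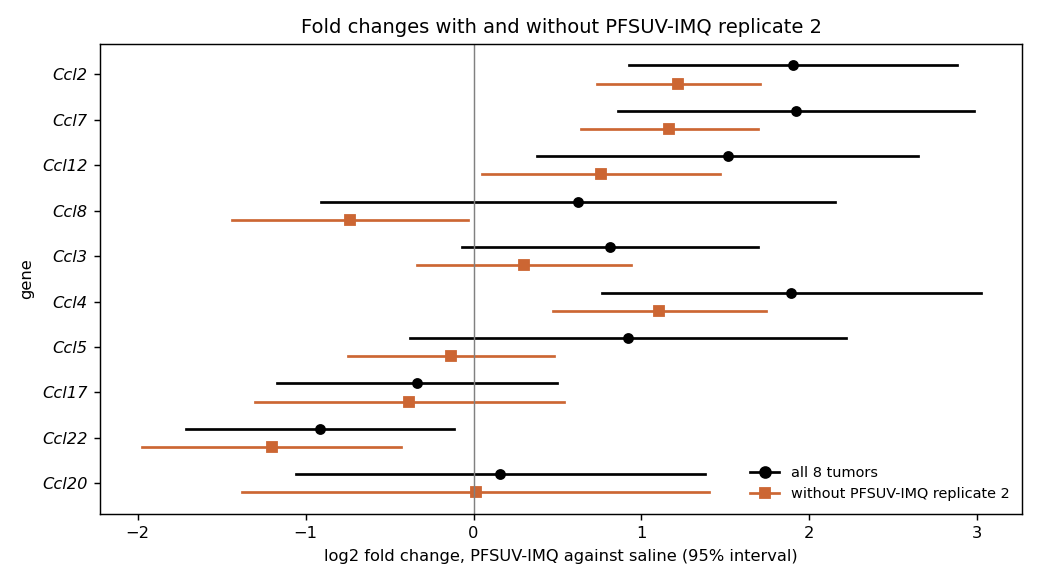
Log2 fold change of PFSUV-IMQ against saline for each chemokine gene, with 95% intervals, from edgeR's quasi-likelihood fit of all 8 tumors (black circles) and of the 7 tumors without PFSUV-IMQ replicate 2 (orange squares). Ccl2, Ccl7, Ccl4 and Ccl12 keep intervals above 0 in both fits, and Ccl8 turns from 0.62 to -0.73.

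Levels between genes were compared per kilobase of annotated exon (RPKM). In the saline tumors Ccl8 was highest, at 112 to 260 RPKM, above all values of Ccl7, the next in order at 34.1 to 54.4 RPKM. From Ccl7 down through Ccl2, Ccl12, Ccl5, Ccl17, Ccl22, Ccl3 and Ccl4 the range of each gene overlapped that of the next, so adjacent places in this order were within the spread of the tumors. Some genes farther apart did not overlap, as all values of Ccl7 lay above those of Ccl5 (at most 29.4 RPKM) and all values of Ccl2 and Ccl12 above those of Ccl17 (at most 17.4 RPKM). Ccl20 was lowest, at 0.181 to 1.16 RPKM, below every value of Ccl4 (5.31 to 9.87 RPKM). After PFSUV-IMQ the first 5 places by mean RPKM were the same, each range overlapping the next, and Ccl4 stood sixth, having been ninth after saline. The share of Ccl8 in the summed RPKM was 53.6, 58.5, 61.0 and 41.4% after saline and 39.4, 46.2, 27.5 and 24.6% after PFSUV-IMQ, the highest treated share being that of replicate 2. In PFSUV-IMQ replicates 3 and 4 Ccl7 had the largest share, just above Ccl8. Ccl2 made up 6.36 to 12.1% after saline and 13.4 to 22.5% after PFSUV-IMQ, and Ccl7 8.87 to 16.5% and 19.7 to 28.3%. For both genes, every treated tumor had a larger share than every control.

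**Figure D3:**
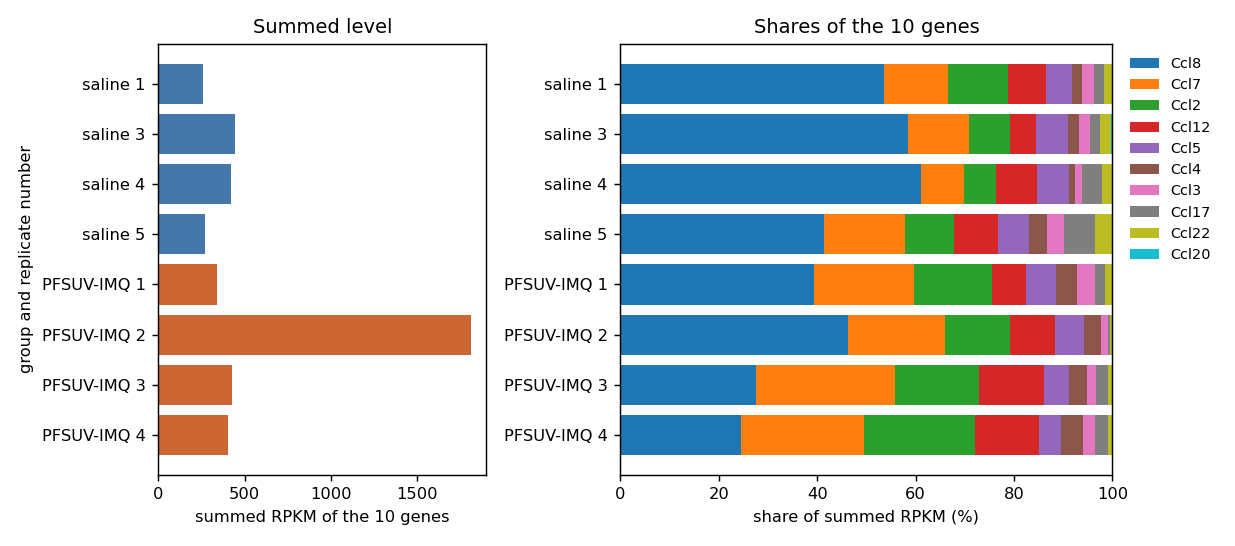
Left, summed RPKM of the 10 chemokine genes in each tumor, and right, the share of each gene in that sum (%), with bars labeled by group and replicate number. Replicate 2 of PFSUV-IMQ reaches 1811 RPKM with Ccl8 at 46.2%, while replicates 3 and 4 have 27.5 and 24.6% Ccl8.

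Ratios within a tumor of genes of the same chromosomal cluster, taken on log2(CPM + 0.5), depend little on the scaling of libraries, and 5 were tested two-sided by exact permutation over the 70 groupings of 4 against 4 tumors, whose smallest p is 0.0286. The log2 ratio of Ccl3 to Ccl4 was 0.49, 0.28, 0.24 and 0.07 after saline and -0.09, -1.04, -0.86 and -0.63 after PFSUV-IMQ. The groups did not overlap, and the difference was -0.93 (exact permutation p = 0.0286, 0.0714 adjusted over the 5 ratios). The log2 ratio of Ccl2 to Ccl8 was -0.98, -1.63, -2.09 and -0.90 after saline and -0.17, -0.63, 0.46 and 1.02 after PFSUV-IMQ. These groups were also apart, replicate 2 included, with a difference of 1.57 (exact permutation p = 0.0286, adjusted 0.0714). For Ccl2 to Ccl7, which are 2 adjacent genes, the means were 0.04 ± 0.27 and 0.06 ± 0.25 (SD, n = 4 each), a difference of 0.01 that was smaller than the spread between tumors (exact permutation p = 0.971, adjusted 0.971). Ccl2 to Ccl12 and Ccl17 to Ccl22 differed by 0.47 and 0.67 with overlapping groups (exact permutation p = 0.200 and 0.229, adjusted 0.286 for each). No ratio passed 0.05 after adjustment. With 0.0286 as the smallest p, 0.0714 was the lowest adjusted value that 2 separated ratios among 5 could reach. The adjusted test could therefore not decide for these 2.

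**Figure D4:**
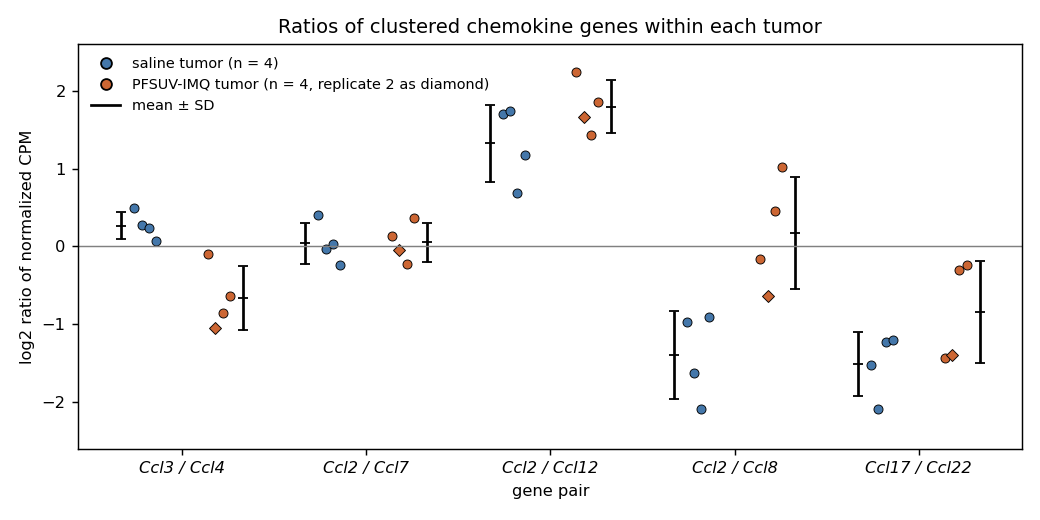
Log2 ratio of normalized CPM for 5 gene pairs in each tumor, saline in blue and PFSUV-IMQ in orange with replicate 2 as a diamond, and mean ± SD of the 4 tumors beside each group. The groups are apart for Ccl3 to Ccl4 and for Ccl2 to Ccl8 and overlap for the other pairs.

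Receptors of these ligands were examined as a list of 9 CC receptor genes, of which 5 had enough counts. None was called, and 1 was lower at an unadjusted p under 0.05, against 4.65% of tested genes. This was Ccr2, the receptor of Ccl2, Ccl7 and Ccl12 on inflammatory monocytes, at 53.1, 57.0, 86.6 and 27.3 CPM after saline and 18.4, 29.8, 23.1 and 24.2 CPM after PFSUV-IMQ. Saline replicate 5 overlapped the treated tumors and the other 3 controls were above them all. The log2 fold change was -1.23 (standard error 0.32, 95% interval -1.94 to -0.52, adjusted p = 0.0890), and Ccr2 was called lower by DESeq2's Wald test, edgeR's exact test and limma's voom, and without saline replicate 5. Without PFSUV-IMQ replicate 2 all treated tumors lay below all controls, with a log2 fold change of -1.37 (adjusted p = 0.0927). Ccr9 and Ccr8 had log2 fold changes of 0.56 and -0.45 at 3.49 CPM or less (adjusted p = 0.683 and 0.798), and of 0.14 and -0.76 without replicate 2. Annotated exons of other genes overlap 21.45% of the exon bases of Ccr9, so its counts may be affected. Ccr4, the receptor of Ccl17 and Ccl22, had at most 0.326 CPM in any tumor and Ccr6, the receptor of Ccl20, at most 0.843 CPM, and neither had enough counts for the test.

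Among 5 atypical chemokine receptor genes, 4 were tested and 1 rose, against 2.26% of all tested genes. Ccrl2, an atypical receptor that holds the attractant chemerin at the cell surface, went from 4.06, 4.11, 3.95 and 4.56 CPM after saline to 28.3, 119, 27.6 and 33.1 CPM after PFSUV-IMQ. The lowest treated tumor was far above the highest control, and the log2 fold change was 3.64 (standard error 0.51, adjusted p = 0.00527), or 2.81 without replicate 2 (adjusted p = 7.7e-05). Ackr3, a scavenger of Cxcl12, also had treated tumors above all controls, at 22.1 ± 3.72 and 42.1 ± 11.3 CPM (SD, n = 4 each), but was not called (log2 fold change 0.93, standard error 0.22, adjusted p = 0.0652, and 0.73 without replicate 2). Ackr1, which binds many inflammatory CC and CXC chemokines on venules and red cell precursors, had a log2 fold change of 1.88 (adjusted p = 0.140), and 1.35 without replicate 2 (adjusted p = 0.252). It was called higher by DESeq2's Wald test, edgeR's exact test and limma's voom (adjusted p = 0.0138, 0.0350 and 0.0118). Annotated exons of Cadm3 overlap 25.7% of its exon bases, so its counts may be affected.

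**Figure D5:**
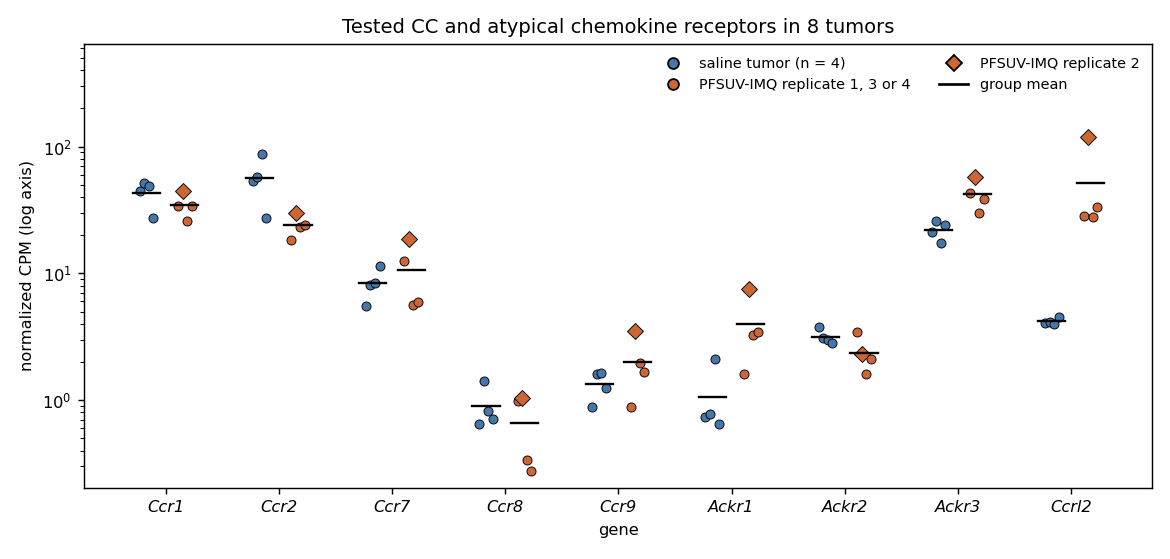
Normalized CPM (log axis) in each tumor of the 5 CC receptor genes and 4 atypical receptor genes that were tested, drawn as in the plot of the chemokines. Ccrl2 is at 3.95 to 4.56 CPM after saline and at 27.6 to 119 CPM after PFSUV-IMQ, and Ccr2 is lower in the treated tumors than in 3 of 4 controls.

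The 11 other CC ligand genes gave no call, and of the 5 with enough counts 1 was higher at an unadjusted p under 0.05, against 8.34% of tested genes. Ccl11 (eotaxin), an eosinophil attractant, had 1.52, 2.64, 2.92 and 1.14 CPM after saline and 2.98, 21.8, 4.74 and 6.73 CPM after PFSUV-IMQ, with no overlap, and differed by 2.13 in log2 (standard error 0.62, adjusted p = 0.138). It was called higher by DESeq2's Wald test and edgeR's exact test, and without replicate 2 its log2 fold change was 1.20 (adjusted p = 0.226). Ccl9, a myeloid attractant, had 218 CPM in replicate 2 and 57.7 to 68.5 CPM in the other treated tumors, against 35.0 to 97.4 CPM after saline. Its log2 fold change of 0.63 turned to -0.08 without replicate 2, and that of Ccl25 was 0.48, and 0.57 without it. Ccl6 had 117 ± 29.3 and 118 ± 43.3 CPM (SD, n = 4 each). Ccl19 and Ccl21a were left out because each symbol belongs to more than a single gene identifier. Of 12 genes that relay chemokine receptor signals none was called, and 2 were lower at an unadjusted p under 0.05, against 4.65% of tested genes. Over all tumors the log2 fold changes of largest size were 0.84 for Rgs1, an inhibitor of G protein signaling, -0.78 for Pik3cg, the lipid kinase of myeloid migration, and -0.47 for Arrb2, an arrestin (adjusted p = 0.477, 0.375 and 0.316), and without replicate 2 they were 0.18, -1.03 and -0.51.

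Levels in bulk tumors cannot tell fewer cells of a type from less RNA per cell, and markers of the cells that make or follow CC chemokines were therefore read beside them. Summed over 10 monocyte and macrophage markers, of which 1 was called higher (Fcgr1), against 2.26% of tested genes, and none lower, expression was 1252 to 1964 CPM after saline and 965 to 1971 CPM after PFSUV-IMQ, the highest being replicate 2. Most of this sum was Lyz2, at 789 to 1351 and 560 to 1222 CPM. The log2 fold changes were above 0 for 6 of these markers and below for 4, from -0.75 (Csf1r) to 1.88 (Ly6c2), which the sum does not show. At an unadjusted p under 0.05, 3 of them were higher, against 8.34% of tested genes, and none lower, against 4.65%. The sum of 6 neutrophil markers was 15.7 to 59.5 and 30.7 to 143 CPM, and that of 7 T and NK cell markers 45.6 to 98.2 and 50.7 to 131 CPM, replicate 2 again being highest in both. Over 5 Kupffer cell markers the sums were 69.1 to 174 and 48.4 to 87.3 CPM, with 1 gene called lower (Vsig4), against 0.200% of tested genes, and over 8 dendritic cell markers 88.9 to 124 and 73.5 to 116 CPM with none called. Endothelial markers summed to 107 to 179 and 90.3 to 143 CPM, and fibroblast markers to 1711 to 2414 and 2003 to 5838 CPM, with none called. Col1a1 and Col3a1 made up most of the fibroblast sum. Ly6g had 0 counts in some saline tumors and Klrb1c in some PFSUV-IMQ tumors. The 8 hepatocyte and liver tumor markers summed to 4333 to 33148 and 6046 to 33108 CPM, again highest in replicate 2 among the treated tumors. Alb made up most of this sum in every tumor, while Afp and Gpc3, the oncofetal markers of the list, were at most 6.08 and 1.99 CPM. RNA of implanted cells and of host liver cannot be told apart. The part of these cell populations in the chemokine values was not tested.

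Over the 8 tumors, the genes most like each chemokine were ranked by the root mean square difference of their log2(CPM + 0.5) values, each centered on its saline mean. Trp53inp1 was nearest to Ccl2 (0.14 on the log2 scale), and Il6 was among the 3 nearest to Ccl2, Ccl4 and Ccl7 (0.24, 0.27 and 0.27). Iglc3 and Il10 were nearest to Ccl5 (0.15 and 0.17), and Ms4a1 to Ccl8 (0.19). Siglecg and Flt3 were nearest to Ccl22 (0.24 and 0.26), Dnhd1 to Ccl12 (0.19), Basp1 to Ccl3 (0.19), Slc22a21 to Ccl17 (0.15) and Mgarp to Ccl20 (0.21). These distances are a description of 8 values per gene, in which replicate 2 weighs heavily.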

How the data were processed

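Counts of reads per gene, deposited without normalization, were the input of every test. The study's methods give alignment with TopHat 2.0.12 and counting with HTSeq 0.6.1, whereas the submitters' processing notes list Trimmomatic 0.38, HISAT2 2.1.0 and featureCounts 2.0.0, and the files do not settle which was used. The second deposited table holds signal values, the same counts divided by the authors with a DESeq2 size factor per tumor (largest relative departure 5e-10). It served for gene symbols and an added alternative. All 55536 identifiers are in GENCODE M21 (GRCm38), the source of positions and exon lengths. Members shared no exon base and no 50-base word with another gene.

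Totals were 16883911 to 27687756 counts after saline and 17008151 to 18527613 after PFSUV-IMQ. Tests used R 4.3.3, edgeR 4.0.16 (TMM, default filter, quasi-likelihood F test), limma 3.58.1 and DESeq2 1.42.0, tested on simulated data, and tables used Python 3.11.15. The standard error is the size of the log2 fold change divided by the root of F. CPM use TMM library sizes. Replicates correlated at 0.917 to 0.987 and differed beyond sampling noise (chi-square per degree of freedom 29.4 to 287). No batch is given. Alternatives were other scalings, filters and tests, no fold limit, a replicate term and each tumor left out. Voom weights and the authors' size factors were added after seeing the data.

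Members and lists were chosen with earlier results of these data known. Named genes are the members, called genes and the 3 largest changes of each family list, and the 3 most alike genes of each member. Ccl6, Ccl19, Ccl21a, Ccr4, Ccr6 and single marker genes were named after their values were seen. The gene of 1 other receptor is not reported here.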

Additional observations from a re-analysis of the deposited data

Results flagged for a closer look

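In 8 of the 54 groups of 4 tumors examined, the gap between a single tumor and its neighbor exceeded Dixon's 95% critical value. For independent, normally distributed values about 5% of groups would do so. The CPM of genes measured in the same tumors are not independent, so the share flagged cannot be compared with that rate. In PFSUV-IMQ replicate 2 this held for Ccl8 (428 CPM, with the other 3 tumors at 50.8 to 68.9), Ccl5 (102 CPM, others 18.0 to 20.9) and Ccl4 (41.4 CPM, others 9.99 to 11.9). The same tumor exceeded it for Ccl9 (218 CPM, others 57.7 to 68.5) and for Ccrl2 (119 CPM, others 27.6 to 33.1). PFSUV-IMQ replicate 1 was low for Ccl17, at 3.64 CPM with the others at 5.38 to 5.58. Saline replicate 1 was low for Ccl22, at 8.89 CPM with the others at 21.2 to 22.5, and saline replicate 4 was high for Ackr1, at 2.10 CPM with the others at 0.652 to 0.773.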

How the results depend on the processing

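No chemokine was called in the quasi-likelihood test of all tumors. With no filter on low counts 3 (Ccl2, Ccl7 and Ccl4) were called higher, against 491 of 34703 genes. The same 3 were called by edgeR's exact test (3.36% of tested genes) and by limma's voom with tumor weights (4.17%). DESeq2's Wald test called 4 (3.12%). With a single tumor left out 0 to 2 were called, against 197 to 375 of all tested genes. Of other CC ligands 1 (Ccl11) was called higher with no filter, by DESeq2 and by the exact test, against the same shares, and 0 with any tumor left out. Ccr2, 1 receptor, was called lower with no filter, against 63 of 34703 genes, and by DESeq2, against 133 of 19857. It was also called lower by the exact test (92 of 15998) and by voom (226 of 15998). With a tumor left out 0 to 1 receptors were called lower, against 8 to 38 of all tested genes. Calls of higher ligands moved with neither the scaling of libraries nor the filter of 10 counts. Lifting the fold limit could add no call, because no ligand had an adjusted p below 0.05 in that fit. Ccl5 turned to -0.057, Ccl8 to -0.70, Ccl17 to 0.13 and Ccl20 to -0.29 under voom, where replicate 2 had the lowest weight (0.372). With a tumor left out, log2 fold changes ranged from -0.13 to 1.18 for Ccl5, -0.73 to 0.93 for Ccl8, -0.12 to 0.98 for Ccl20 and -0.075 to 0.88 for Ccl9, and the Ccl2 to Ccl7 ratio from -0.087 to 0.14. The adjusted p over alternatives ran from 8.2e-04 to 0.147 for Ccl2, 0.00169 to 0.208 for Ccl7, 0.00444 to 0.254 for Ccl4 and 3.7e-12 to 0.0307 for Ccrl2. The cause of these differences was not tested.

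The groups share the replicate numbers 1, 3 and 4. Same-numbered tumors deviated from their group means with correlations of 0.31, -0.27 and -0.36. Pairs with different numbers ran from -0.66 (saline replicate 5 with PFSUV-IMQ replicate 2) to 0.71 (saline replicate 4 with PFSUV-IMQ replicate 2). Same-numbered tumors were thus not the most alike, but these values cannot tell whether they shared any handling. With the replicate block 3 chemokines (Ccl2, Ccl7 and Ccl4) were called higher, against 416 of 15998 tested genes. Of the receptors 1 (Ccr2) was called lower, against 267 of 15998. Ccl5, Ccl8 and Ccl9 turned to -0.15, -0.87 and -0.23. Saline replicate 5 and PFSUV-IMQ replicate 2 have no partner and do not enter the difference in that fit, so it also leaves out replicate 2.

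Over all genes, 362 higher and 32 lower calls compared with 619 and 133 by DESeq2, 537 and 92 by the exact test, 667 and 226 by voom, 416 and 267 with the replicate block, 491 and 63 with no filter, and 197 to 375 and 8 to 38 with a tumor left out. Upper-quartile scaling moved the median log2 fold change from -0.03 to -0.10. With 4 tumors a group and replicate 2 far from the rest, the intervals of most members span more than a 2-fold range.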
